A study of Homo sapiens with 8 samples.

Results

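A group of 93 genes gave lower signals in ATRA-treated cells than in either of the untreated lines. They were chosen by their measured values on all 8 arrays of the study, out of 19775 genes that have a probe set of their own. A gene was kept when the highest of its 4 ATRA arrays lay below the lowest of its 4 untreated arrays by 0.7 or more on the log2 scale, and when its mean log2 signal over the untreated arrays was 6 or more. That distance between the lowest untreated and the highest ATRA array is called the gap. Of 11222 genes at that level, 101 met these thresholds and 8 of them were left out by name (BLNK, CLCA2, COL1A1, COL4A6, COL7A1, DSC3, KRT14 and KRT16). The 93 members are 0.833% of the 11169 genes that could have entered. The opposite choice, all ATRA arrays higher by the same gap, held 56 genes. Its level threshold was set on the mean of the ATRA arrays, and names were left out in the same way.

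The RNA came from human breast epithelial cells in 4 groups of 2 samples, and each sample was hybridised to an Affymetrix U133 Plus 2.0 array. MCF-10F is a spontaneously immortalized, normal-like line that lacks estrogen receptor, and it was untreated. The trMCF cells are MCF-10F cells transformed by a high dose of estradiol, and trMCF clone 11 is a line expanded from 1 ring-cloned colony of them, so it stands for that clone. The other groups were clone 11 cells kept for 26 days with ATRA, 1 at 1 μM and 1 at 10 μM, with fresh medium every day. No ATRA-treated MCF-10F array was analysed here. Vehicle-treated clone cells were described as the control of the treatment, and the sources do not say whether the clone arrays held cells given vehicle. Separate cultures for the replicate arrays are not mentioned either, so every p-value measures only the spread between these arrays. In the labels, replicate 1 of trMCF clone 11 carries the disease state of the normal line while its title names the clone, and the title was followed.

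ATRA, the acid form of vitamin A, enters the nucleus and binds retinoic acid receptors, which sit on DNA as partners of retinoid X receptors. Bound receptors release corepressors and recruit coactivators at target genes, while lower transcription after retinoids is known to come partly through interference with other factors such as AP-1. In stratified and glandular epithelia retinoids are known to hold back squamous differentiation. Because the choice of members used the ATRA and untreated values themselves, every difference between ATRA and untreated arrays below is a description and carries no test.

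The genes of the small proline-rich proteins SPRR1B and SPRR1A, whose products are cross-linked into the cornified envelope of squamous cells, stood among the members with the widest gaps. Metallothioneins, which bind zinc and copper, and histone genes were also represented by several members. Promoters of 5 of these genes are shown because each has a near relative among the members. They are RefSeq promoters of build GRCh38.p14, from 250 bases before to 50 bases after the start of the gene, written 5′ to 3′ on the gene's strand. Capitals mark the TATA box, spelled TATAAA, in any of them. In the SPRR promoters they also mark AP-1 letters, spelled TGANTCA. In the histone promoters they also mark the letters bound by NF-Y, spelled CCAAT, and in MT1X a metal response core, spelled TGCNCNC. Each motif was searched on both strands, so a match on the other strand is printed as its reverse complement.
SPRR1B, chr1:153030953-153031252, plus strand: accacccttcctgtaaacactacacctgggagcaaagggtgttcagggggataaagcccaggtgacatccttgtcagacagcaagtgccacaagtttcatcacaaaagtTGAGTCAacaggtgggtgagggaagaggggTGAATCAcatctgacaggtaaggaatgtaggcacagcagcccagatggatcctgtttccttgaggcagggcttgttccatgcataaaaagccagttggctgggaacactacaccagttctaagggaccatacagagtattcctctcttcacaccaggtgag
SPRR1A, chr1:152983831-152984130, plus strand: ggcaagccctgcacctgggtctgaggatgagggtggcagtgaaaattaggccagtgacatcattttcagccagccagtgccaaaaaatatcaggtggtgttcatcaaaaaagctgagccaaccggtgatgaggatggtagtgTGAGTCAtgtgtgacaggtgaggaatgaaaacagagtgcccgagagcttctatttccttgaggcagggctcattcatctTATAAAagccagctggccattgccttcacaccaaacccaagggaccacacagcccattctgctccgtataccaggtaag
H2BC5, chr6:26157871-26158170, plus strand: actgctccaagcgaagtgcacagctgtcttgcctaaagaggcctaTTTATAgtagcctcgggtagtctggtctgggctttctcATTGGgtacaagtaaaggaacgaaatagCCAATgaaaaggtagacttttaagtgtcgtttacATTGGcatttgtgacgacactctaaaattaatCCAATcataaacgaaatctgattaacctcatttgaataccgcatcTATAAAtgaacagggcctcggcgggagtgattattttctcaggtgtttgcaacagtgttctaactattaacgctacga
H2BC12, chr6:27146809-27147108, minus strand: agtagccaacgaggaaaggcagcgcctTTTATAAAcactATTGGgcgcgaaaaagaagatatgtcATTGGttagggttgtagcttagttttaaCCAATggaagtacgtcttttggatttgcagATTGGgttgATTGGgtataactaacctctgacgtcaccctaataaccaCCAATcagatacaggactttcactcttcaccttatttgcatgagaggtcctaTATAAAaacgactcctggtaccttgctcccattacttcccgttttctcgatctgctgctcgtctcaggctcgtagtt
MT1X, chr16:56682220-56682519, plus strand: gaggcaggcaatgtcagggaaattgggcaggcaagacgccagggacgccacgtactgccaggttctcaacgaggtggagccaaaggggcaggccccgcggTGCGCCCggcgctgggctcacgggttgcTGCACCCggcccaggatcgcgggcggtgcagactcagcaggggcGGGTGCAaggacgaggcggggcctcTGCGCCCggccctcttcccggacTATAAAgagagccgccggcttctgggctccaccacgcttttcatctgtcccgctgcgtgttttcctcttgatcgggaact

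In SPRR1B the AP-1 letters stood at -141 and -111 from the start and in SPRR1A at -108, where a TATA match also stood at -29. The H2BC5 window held 4 CCAAT matches and TATA letters at -28 and, on the other strand, at -205. The H2BC12 window held 6 CCAAT matches and TATA letters at -27, besides 2 overlapping TATA matches at -223 and -221. MT1X held the metal response core at -150, -122, -78 and -53 and TATA letters at -30. RefSeq promoters were found for 71 of the 93 members. AP-1 letters were in 8 of them (11.3%), beside 7.76% of all 27305 promoters, and those 8 were SLITRK6, SPRR1B, GJA1, BBOX1, SPRR1A, VAV3, ARRDC4 and ISG20. The retinoic acid receptor hexamer AGGTCA was in 4 (5.63%), SELENOP, PTGFR, EVA1A and TSPAN1, beside 13.9% of all promoters. As a direct repeat with 5 bases between the copies it was in 0 member promoters and in 0.00366% of all. TATA letters were in 11 (15.5% beside 12%), CCAAT in 27 (38% beside 35.7%), SP1 letters GGGCGG in 41 (57.7% beside 44.6%) and the E-box CACGTG in 9 (12.7% beside 7.43%). TEAD letters GGAATG were in 12 (16.9% beside 14%) and NF-kB letters, GGG and CC with 5 bases between, in 45 (63.4% beside 58%). The metal response core was in 53.5% of member promoters beside 55.2% of all, and the hypoxia response core ACGTG in 29.6% beside 21.6%; these last motifs were added after the values had been seen. A match is a description of the letters in this window only.

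Over the members, the median log2 signal per array was 8.95 and 9.26 in MCF-10F and 9.06 and 9.29 in trMCF clone 11. It was 7.10 and 7.15 at 1 μM and 6.87 and 6.67 at 10 μM ATRA. Over all 11222 genes at that level the same medians lay between 8.44 and 8.67 on every array. The median difference of the members, mean of ATRA arrays minus mean of untreated arrays, was -1.95, and it ran from -4.06 for ACKR3 to -1.0 for LIMK2. The median gap was 1.04, with 47 members at 1 or more and 6 at 2 or more. Of the members, 92 are protein-coding and 1, MIR100HG, is a long noncoding RNA that is known as the host of a microRNA cluster. In bulk RNA, fewer cells of a kind and less RNA per cell cannot be told apart.

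**Figure D1:**
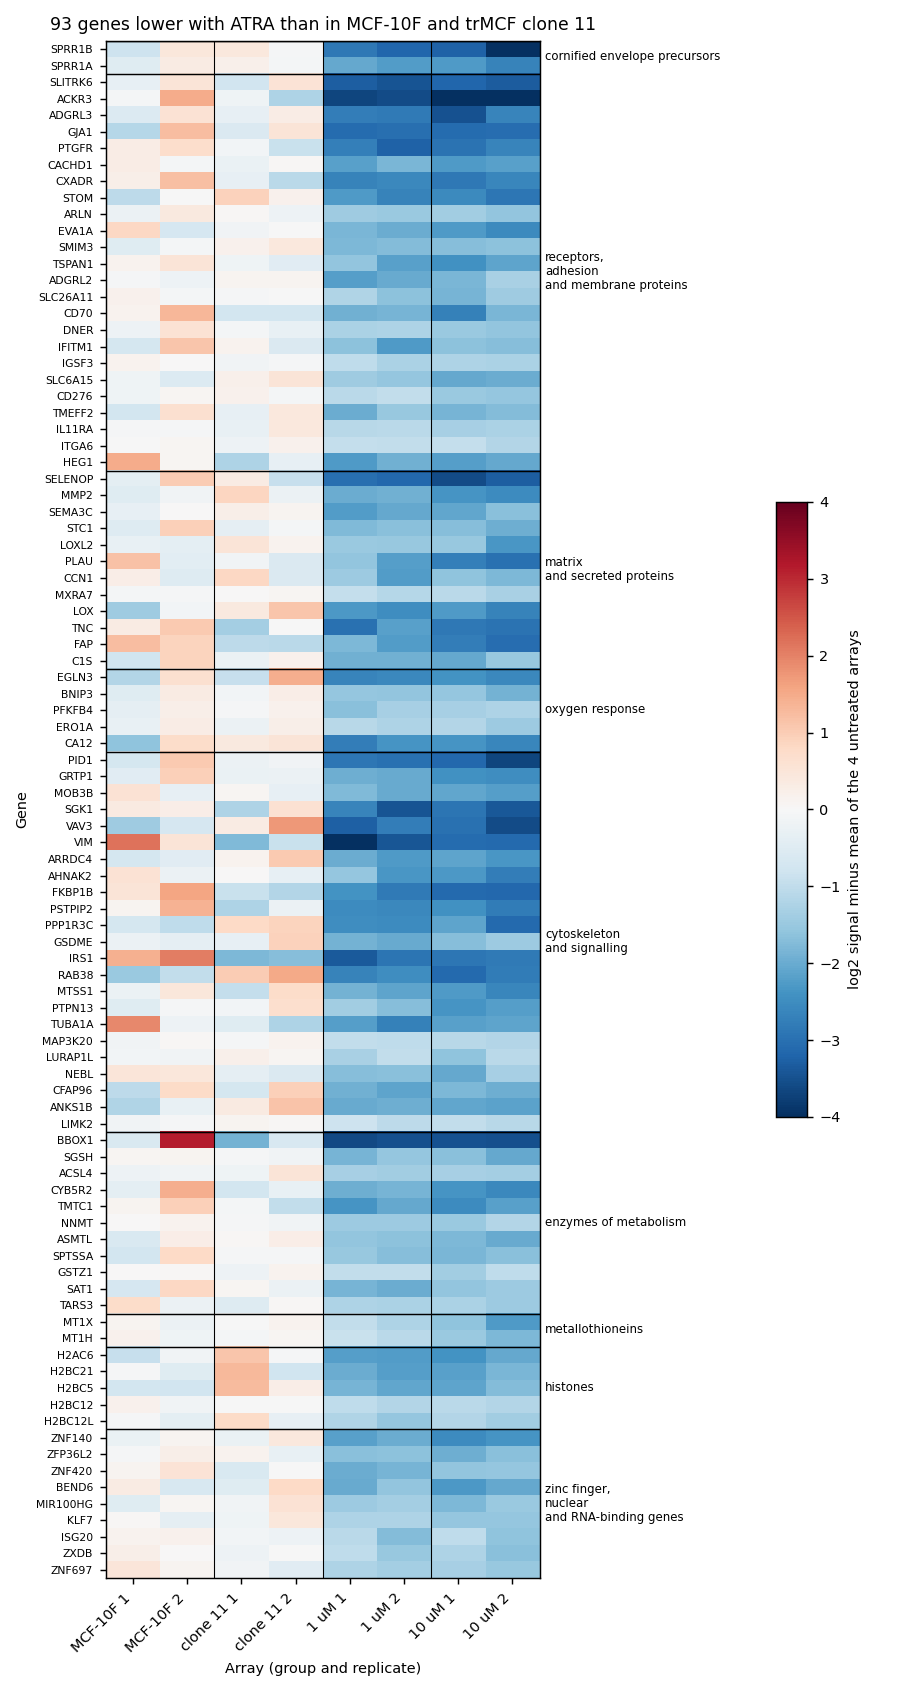
Each row is 1 of the 93 members, grouped by role, and each column 1 of the 8 arrays; colour gives the log2 signal minus the mean of that gene's 4 untreated arrays, from -4 (blue) to 4 (red). All 4 ATRA columns are blue for every member, as the choice of members requires, while the untreated columns differ from gene to gene, with BBOX1 in MCF-10F replicate 2 (10.12) standing far above its other arrays.

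The untreated arrays differed more among themselves than the ATRA arrays did. Untreated arrays came from 2 lines and ATRA arrays from 1 clone at 2 doses, so the untreated spread includes the difference between the lines. The median standard deviation of a member was 0.60 over the untreated arrays (n = 4) and 0.23 over the ATRA arrays (n = 4), and the ATRA value was the smaller in 77 members. For all genes at that level the medians were 0.37 and 0.11. Between the 2 arrays of a group, 28 members (30.1%) lay more than 2-fold apart in MCF-10F, 19 (20.4%) in trMCF clone 11, 0 at 1 μM and 1 (1.08%) at 10 μM. Over all probe sets, dim ones included, those shares were 3.48%, 7.71%, 0.126% and 0.211%. The lowest untreated value, which sets the gap, came from MCF-10F replicate 1 in 38 members, from MCF-10F replicate 2 in 16, and from the clone replicates in 19 and 20. Without MCF-10F replicate 1 the same thresholds would hold 205 genes, the present 93 among them.

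Receptors, adhesion molecules and other membrane proteins made up 24 members, with gaps from 0.70 to 2.39. The widest gap of all was that of SLITRK6, a transmembrane protein with leucine-rich repeats known from neurite growth and inner ear development. SLITRK6 read 9.32 and 10.18 in MCF-10F, 8.88 and 10.21 in trMCF clone 11, 6.34 and 6.20 at 1 μM and 6.49 and 6.31 at 10 μM. The untreated lines overlapped, as did the doses, and the mean of untreated over ATRA arrays was 9.94-fold. Both other SLITRK6 probe sets met the same thresholds, with gaps of 1.75 and 0.87. ACKR3, an atypical chemokine receptor that scavenges CXCL12, had the lowest ATRA values relative to untreated cells. ACKR3 read 8.09 and 9.66 in MCF-10F, 7.99 and 6.93 in the clone, 4.51 and 4.60 at 1 μM and 3.53 and 3.77 at 10 μM, a 16.7-fold difference between untreated and ATRA means. Its clone arrays lay below its MCF-10F arrays and its 10 μM arrays below its 1 μM arrays.

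ADGRL3 and ADGRL2 encode latrophilins, adhesion receptors of the G protein-coupled kind that bind teneurins and FLRT proteins. ADGRL3 read 7.28 and 8.43 in MCF-10F, 7.51 and 8.13 in the clone, 5.08 and 5.01 at 1 μM and 4.35 and 5.20 at 10 μM. ADGRL2 read 9.24 and 9.10 in MCF-10F, 9.40 and 9.41 in the clone, 7.10 and 7.27 at 1 μM and 7.47 and 8.00 at 10 μM. The 2 genes thus shared the order of untreated and ATRA arrays, while the 10 μM arrays of ADGRL2 both lay above its 1 μM arrays. GJA1, the gene of the gap junction protein connexin 43, was measured at 4.98 and 7.36 in MCF-10F, 5.53 and 6.62 in the clone, 3.03 and 3.11 at 1 μM and 3.05 and 3.06 at 10 μM. PTGFR, the receptor of prostaglandin F, was measured at 7.0 and 7.40, then 6.59 and 5.80 in the clone, 3.97 and 3.46 at 1 μM and 3.76 and 4.07 at 10 μM. Means at both doses of GJA1, PTGFR and BBOX1 were under a signal of 16 on the linear scale, as was the 10 μM mean of ACKR3, GRTP1 and CYB5R2, so the size of these 6 differences is uncertain. CXADR, a junction protein that serves as the receptor of coxsackieviruses and adenoviruses, read 8.70 and 9.69 in MCF-10F, 8.15 and 7.39 in the clone, 5.81 and 5.89 at 1 μM and 5.62 and 5.87 at 10 μM. CACHD1, a subunit that modulates calcium channels, had a gap of 1.57.

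**Figure D2:**
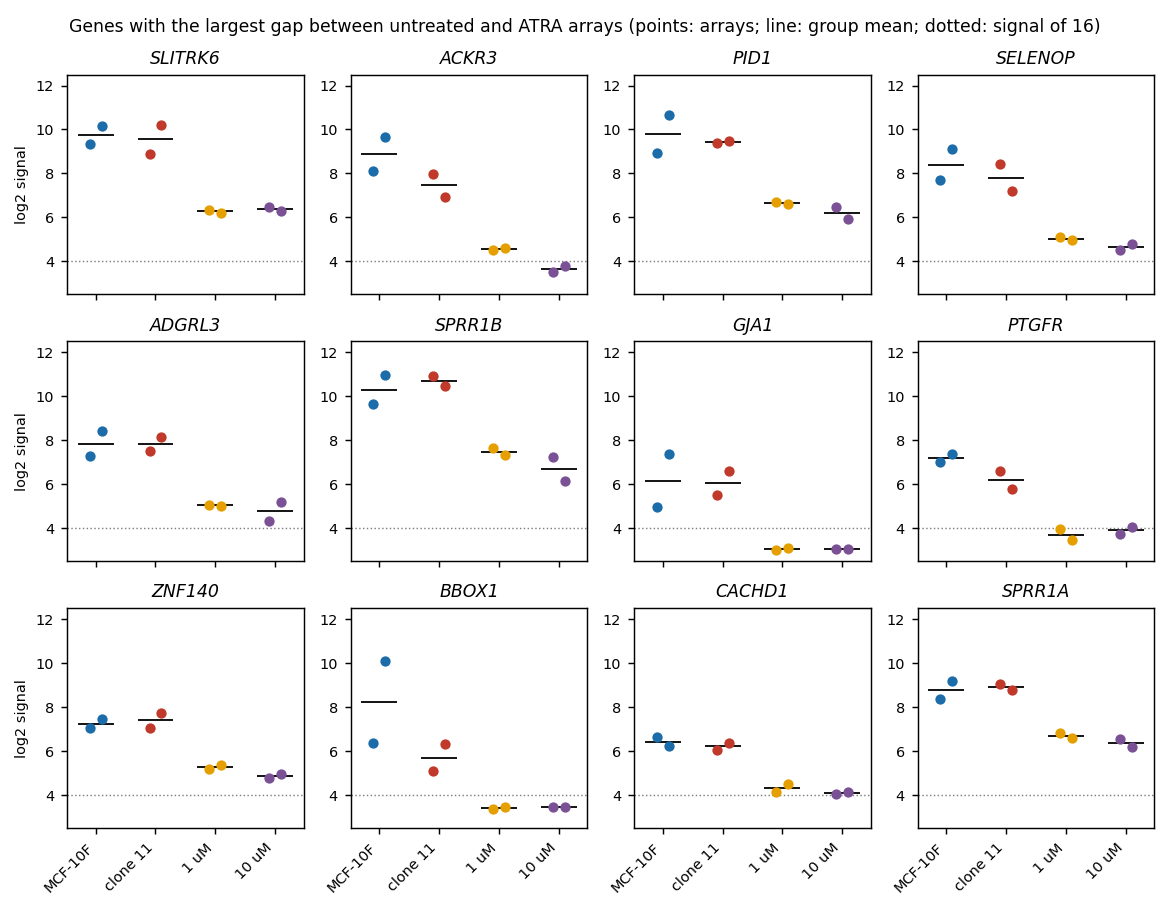
Log2 signal (y axis) of the 12 members with the widest gaps on each of the 8 arrays, by group (x axis); points are arrays, black lines group means, and the dotted line marks a signal of 16. The ATRA means of GJA1, PTGFR and BBOX1 lie under that line, and the untreated arrays of BBOX1 spread from 5.08 to 10.12.

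The remaining membrane proteins had gaps between 0.70 and 1.21. They were the ligand CD70 of the tumour necrosis factor family, the immune checkpoint protein CD276, the interleukin receptor IL11RA, the tetraspanin TSPAN1, the Notch-related protein DNER, the immunoglobulin family member IGSF3, the growth factor-like TMEFF2, the laminin receptor subunit ITGA6, the mucin-like HEG1, the antiviral IFITM1, the stomatin gene STOM, the transporters SLC6A15 and SLC26A11, EVA1A, SMIM3 and ARLN. ITGA6, which anchors basal epithelial cells to laminin, was tight within each side, with 11.99 and 12.07 in MCF-10F, 11.79 and 12.18 in the clone, 11.05 and 11.02 at 1 μM and 11.04 and 10.83 at 10 μM. HEG1 was the opposite case, with untreated arrays from 7.73 to 10.44 and ATRA arrays from 6.71 to 7.03, and it lay just inside the threshold.

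Matrix proteins, proteases and other secreted proteins made up 12 members, with gaps from 0.72 to 2.09 and differences from -3.26 to -1.12. SELENOP, the secreted selenium carrier, read 7.71 and 9.10 in MCF-10F, 8.42 and 7.18 in the clone, 5.09 and 4.95 at 1 μM and 4.53 and 4.79 at 10 μM. MMP2, a gelatinase that cuts basement membrane collagen, read 9.11 and 9.45 in MCF-10F, 10.44 and 9.34 in the clone, 7.58 and 7.65 at 1 μM and 7.21 and 7.06 at 10 μM. PLAU, the urokinase that activates plasminogen, read 10.52 and 8.95, then 9.21 and 8.77 in the clone, 7.79 and 7.15 at 1 μM and 6.64 and 6.39 at 10 μM. Both proteases were lower at 10 μM than at 1 μM on every array, while their untreated lines overlapped. FAP, a surface protease of activated fibroblasts, read 10.61 and 10.29 in MCF-10F, 8.33 and 8.31 in the clone, 7.59 and 7.17 at 1 μM and 6.64 and 6.33 at 10 μM. Its 4 groups did not overlap and stood in the order MCF-10F, clone, 1 μM, 10 μM.

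LOX and LOXL2 encode lysyl oxidases, which cross-link collagen and elastin. LOX read 10.55 and 11.85 in MCF-10F, 12.37 and 13.09 in the clone, 9.68 and 9.47 at 1 μM and 9.69 and 9.29 at 10 μM. LOXL2 read 10.17 and 10.07 in MCF-10F, 10.97 and 10.61 in the clone, 8.97 and 8.93 at 1 μM and 8.94 and 8.14 at 10 μM. For both enzymes the clone arrays lay above the MCF-10F arrays and the ATRA arrays below MCF-10F. TNC, the anti-adhesive matrix protein tenascin C, went the other way between the lines, with 9.39 and 10.09 in MCF-10F and 7.68 and 9.04 in the clone, before 6.08 and 6.88 at 1 μM and 6.20 and 6.11 at 10 μM. SEMA3C, a secreted guidance ligand of plexins and neuropilins, read 11.75 and 12.11, then 12.31 and 12.19 in the clone, 9.87 and 10.05 at 1 μM and 10.01 and 10.42 at 10 μM. CCN1, a matricellular protein, STC1, the hormone stanniocalcin, C1S, a complement protease, and MXRA7, a matrix remodelling-associated gene, had gaps of 0.89, 1.14, 0.72 and 0.89.

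The cornified envelope precursors were lower with ATRA by more than most members. SPRR1B read 9.67 and 10.95 in MCF-10F, 10.92 and 10.46 in the clone, 7.65 and 7.32 at 1 μM and 7.25 and 6.13 at 10 μM, a 10.6-fold difference between untreated and ATRA means. SPRR1A read 8.36 and 9.19, then 9.06 and 8.78 in the clone, 6.81 and 6.60 at 1 μM and 6.57 and 6.18 at 10 μM, a 4.95-fold difference. Both genes, whose AP-1 letters are printed above, were lower on the 10 μM than on the 1 μM arrays. A second SPRR1A probe set did not follow, with 9.29 and 9.46 in MCF-10F, 7.05 and 5.41 in the clone, 6.30 and 6.44 at 1 μM and 5.75 and 5.62 at 10 μM, so its clone arrays overlapped the ATRA arrays. The probe set that made SPRR1A a member carries the suffix for probes that match several transcripts, while this second one does not, so signals of near-identical copies cannot be told apart in the 4.95-fold difference. The other genes of the family that reached the level threshold, SPRR2B, SPRR2G, SPRR3 and SPRR4, had overlapping arrays.

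Cytoskeletal and signalling genes made up 23 members, with gaps from 0.70 to 2.18. PID1, an adaptor known to dampen insulin signalling, read 8.91 and 10.65 in MCF-10F, 9.38 and 9.46 in the clone, 6.72 and 6.62 at 1 μM and 6.46 and 5.93 at 10 μM. IRS1, the docking protein of the insulin and IGF receptors, read 9.92 and 10.55, then 6.69 and 6.80 in the clone, 5.14 and 5.58 at 1 μM and 5.60 and 5.65 at 10 μM. The clone arrays of IRS1 lay nearer to the ATRA arrays than to MCF-10F, whereas those of PID1 lay among the MCF-10F arrays. VIM, the intermediate filament protein of mesenchymal cells, read 13.15 and 11.49 in MCF-10F, 9.21 and 10.08 in the clone, 6.82 and 7.55 at 1 μM and 7.91 and 7.87 at 10 μM. Untreated VIM signals thus spread from 9.21 to 13.15, and the difference between untreated and ATRA means was 10.9-fold. TUBA1A, an alpha tubulin, had untreated values of 12.09 and 9.97 in MCF-10F and 9.71 and 8.93 in the clone, and ATRA values from 7.47 to 8.06.

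SGK1, a kinase induced by glucocorticoids and serum, read 11.73 and 11.64 in MCF-10F, 10.15 and 11.97 in the clone, 8.74 and 7.93 at 1 μM and 8.45 and 7.99 at 10 μM. VAV3, a guanine nucleotide exchange factor, read 6.49 and 7.24, then 8.25 and 9.64 in the clone, 4.64 and 5.14 at 1 μM and 4.94 and 4.34 at 10 μM. RAB38, a GTPase of melanosome and lysosome-related traffic, read 6.93 and 7.43, then 9.45 and 9.93 in the clone, 5.76 and 5.95 at 1 μM and 5.33 and 5.64 at 10 μM. VAV3 and RAB38 were therefore highest in the clone and lowest with ATRA. The others in this group were GRTP1, MOB3B, ARRDC4, AHNAK2, FKBP1B, PSTPIP2, PPP1R3C, GSDME, MTSS1, PTPN13, MAP3K20, LURAP1L, NEBL, CFAP96, ANKS1B and LIMK2, with gaps from 0.70 to 1.5. Among them ARRDC4 is an arrestin family protein known to limit glucose uptake, GSDME a pore-forming gasdermin, PTPN13 a tyrosine phosphatase, MAP3K20 a stress-activated kinase, and LIMK2 a kinase of cofilin.

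Oxygen-responsive genes made up 5 members. EGLN3, a prolyl hydroxylase that marks hypoxia-inducible factor for destruction, read 6.74 and 8.53 in MCF-10F, 6.98 and 9.36 in the clone, 5.27 and 5.32 at 1 μM and 5.51 and 5.31 at 10 μM. BNIP3, a mitochondrial receptor of mitophagy, read 11.57 and 12.38, then 11.96 and 12.31 in the clone, 10.51 and 10.49 at 1 μM and 10.51 and 10.16 at 10 μM. In both genes replicate 1 was the lower array in MCF-10F and in the clone. CA12, a surface carbonic anhydrase, read 8.78 and 11.12 in MCF-10F, 10.79 and 10.92 in the clone, 7.62 and 8.05 at 1 μM and 8.05 and 7.79 at 10 μM. PFKFB4, which sets the level of a glycolytic activator, had a gap of 0.86, and ERO1A, an oxidase of the endoplasmic reticulum that helps form disulfide bonds, a gap of 0.80.

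The list of hypoxia response and glycolysis genes held 34 genes at the level threshold, and 4 of these were members (EGLN3, BNIP3, PFKFB4 and CA12). For 13 genes (38.2%) all ATRA arrays lay below all untreated arrays, beside 8.55% of all genes at that level. For 1 gene (2.94%), PFKP, all ATRA arrays lay above, beside 11.2% of all genes. The 9 further genes below were ADM, ALDOA, ALDOC, BNIP3L, GAPDH, HK2, LDHA, PDK1 and PGK1. ALDOC, an aldolase, read 7.91 and 8.51 in MCF-10F, 9.52 and 9.59 in the clone, 7.30 and 6.89 at 1 μM and 7.27 and 6.83 at 10 μM. LDHA, the lactate dehydrogenase, differed far less, with 14.26 and 14.37, then 14.08 and 14.27 in the clone, 13.98 and 13.97 at 1 μM and 13.99 and 13.85 at 10 μM. The median difference over the list was -0.45, beside 0.03 for all genes. Since the list was written with earlier results known, it is no independent evidence of its direction.

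**Figure D3:**
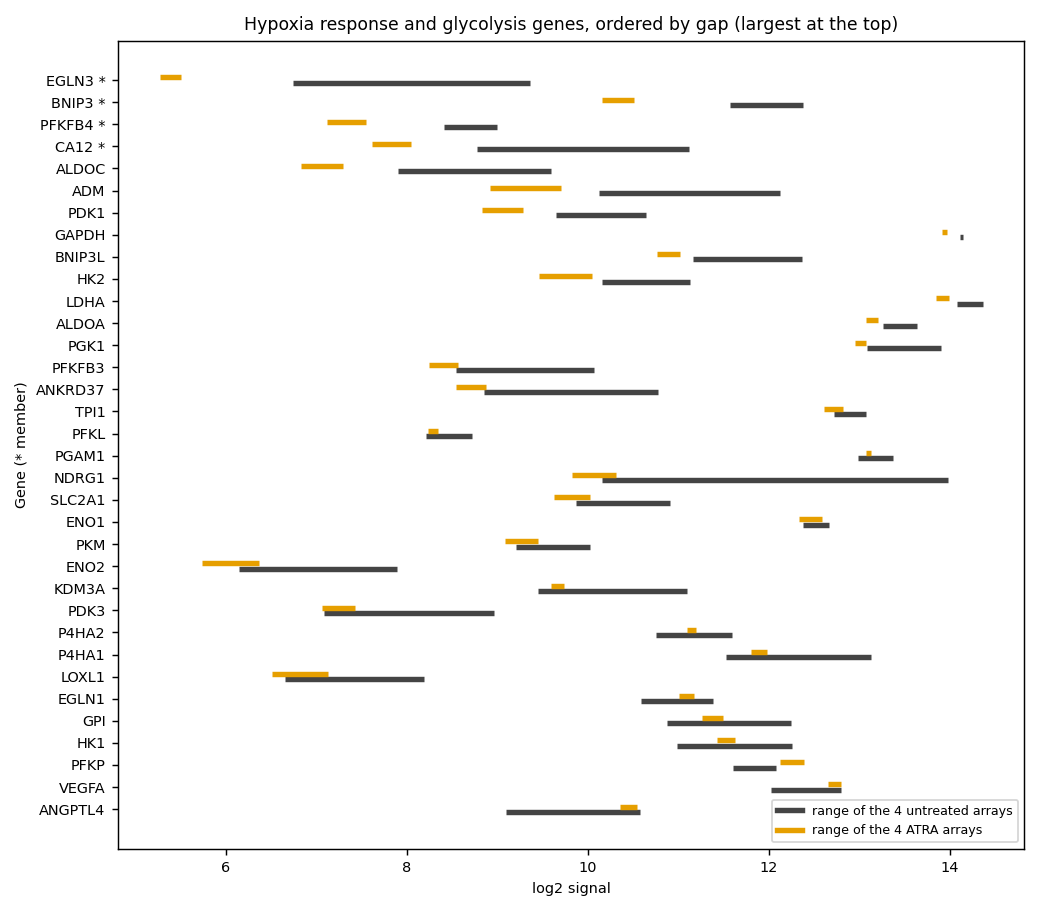
Range of log2 signal (x axis) over the 4 untreated arrays (dark) and the 4 ATRA arrays (orange) for the 34 hypoxia response and glycolysis genes at the level threshold (y axis), ordered by gap with the widest at the top and members starred. The bars are separate for 13 genes from EGLN3 down to PGK1, and PFKP is the gene whose ATRA range lies above its untreated range.

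Metallothioneins were represented by MT1X and MT1H. MT1X read 13.77 and 13.42 in MCF-10F, 13.64 and 13.79 in the clone, 12.65 and 12.41 at 1 μM and 12.04 and 11.38 at 10 μM. MT1H read 13.02 and 12.69, then 12.77 and 12.93 in the clone, 11.97 and 11.78 at 1 μM and 11.38 and 11.05 at 10 μM. In both, the untreated lines were close and the 10 μM arrays lay below the 1 μM arrays. Of 9 metallothionein genes at the level threshold, 7 (77.8%) had all ATRA arrays below all untreated arrays, beside 8.55% of all genes, the others being MT1E, MT1F, MT1G, MT1HL1 and MT2A. None lay all above, beside 11.2% of all genes. The family was counted after the values had been seen, and its members' probe sets carry the suffix for probes that match several transcripts, so signals of near-identical copies cannot be told apart.

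Histone genes contributed H2AC6, H2BC5, H2BC12, H2BC12L and H2BC21, which encode copies of the core histones H2A and H2B. H2AC6 read 8.55 and 9.33 in MCF-10F, 10.57 and 9.41 in the clone, 7.27 and 7.23 at 1 μM and 7.08 and 7.42 at 10 μM. H2BC5 read 9.05 and 9.02, then 11.03 and 10.04 in the clone, 7.92 and 7.69 at 1 μM and 7.67 and 8.06 at 10 μM. H2BC12 read 10.71 and 10.39, then 10.51 and 10.50 in the clone, 9.50 and 9.37 at 1 μM and 9.44 and 9.37 at 10 μM. Clone replicate 1 was the highest array for H2AC6, H2BC5, H2BC12L and H2BC21, while the H2BC12 arrays were even. Among 17 histone genes at the level threshold, 9 (52.9%) had all ATRA arrays below, beside 8.55% of all genes, and 1, H2AZ2, all above, beside 11.2%. The other 4 below were H1-2, H2AC14, H2BC6 and H3-3A. This family was also counted after the values had been seen, and of the genes named here only H1-2 and H2BC12 have a probe set without a suffix for probes that match several transcripts, so copies of the others cannot be told apart.

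Enzymes of metabolism made up 11 members, with gaps from 0.74 to 1.61. BBOX1, which makes carnitine, read 6.35 and 10.12 in MCF-10F, 5.08 and 6.33 in the clone, 3.35 and 3.45 at 1 μM and 3.47 and 3.46 at 10 μM. Its difference of -3.54 rests much on MCF-10F replicate 2. NNMT, which methylates nicotinamide, read 12.22 and 12.34, then 12.13 and 12.06 in the clone, 10.74 and 10.73 at 1 μM and 10.71 and 11.02 at 10 μM. SAT1, the polyamine acetyltransferase, read 12.39 and 13.89, then 13.13 and 12.80 in the clone, 11.20 and 11.07 at 1 μM and 11.48 and 11.60 at 10 μM. The remaining enzymes were the fatty acid ligase ACSL4, the serine palmitoyltransferase subunit SPTSSA, the tyrosine breakdown enzyme GSTZ1, the reductase CYB5R2, the lysosomal sulfatase SGSH, the threonyl-tRNA synthetase TARS3, the mannosyltransferase TMTC1 and ASMTL.

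The last 9 members were zinc finger, nuclear and RNA-binding genes, with gaps from 0.78 to 1.70. ZNF140, a KRAB zinc finger gene, read 7.06 and 7.45 in MCF-10F, 7.07 and 7.75 in the clone, 5.17 and 5.36 at 1 μM and 4.80 and 4.98 at 10 μM. ZFP36L2, which binds AU-rich elements and speeds mRNA decay, read 11.51 and 11.78, then 11.69 and 11.27 in the clone, 9.89 and 9.93 at 1 μM and 9.60 and 9.89 at 10 μM. Both showed overlapping untreated lines. ZNF420, ZNF697, ZXDB, the Krüppel-like factor KLF7, BEND6, the exonuclease ISG20 and MIR100HG had gaps from 0.78 to 0.93. Of 297 zinc finger genes at the level threshold, 24 (8.08%) had all ATRA arrays below, near the 8.55% of all genes.

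The members just inside the threshold were LIMK2 and HEG1 with gaps of 0.70 and C1S, FAP and MT1H with 0.72. Just outside lay MT1G with 0.70 after rounding, ZBED2 with 0.69 and NFIL3 with 0.68. In all, 19 members had a gap under 0.8.

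Other probe sets of the same genes read the same arrays and are given as a description. Of 127 further single-gene probe sets for 66 members, 68 reached the level threshold, and these belong to 40 members. All ATRA arrays lay below all untreated arrays in 53 of the 68, and 25 met the full gap. The arrays overlapped in 15, and in 0 did all ATRA arrays lie above. CA12 and MAP3K20 had 3 further probe sets each with the full gap, and ADGRL3, NEBL, NNMT and SLITRK6 had 2 each. SLC6A15 and IGSF3 each had 3 probe sets whose arrays overlapped, and MAP3K20 had 2. When a gene was given by the mean of all its probe sets instead, 49 of the 93 members still met the thresholds.

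Several members are neighbours in the genome annotation. SGSH and SLC26A11 on chromosome 17, PID1 and DNER on chromosome 2, EGLN3 and SPTSSA on chromosome 14, and MT1H and MT1X on chromosome 16 have 0 coding genes between them. SPRR1A and SPRR1B on chromosome 1 and H2AC6 and H2BC5 on chromosome 6 have 1 between. SGSH read 7.06 and 7.10 in MCF-10F, 6.94 and 6.83 in the clone, 5.11 and 5.42 at 1 μM and 5.31 and 4.92 at 10 μM. SLC26A11 read 7.73 and 7.48, then 7.51 and 7.55 in the clone, 6.37 and 5.94 at 1 μM and 5.70 and 6.16 at 10 μM. In this pair the clone lay below MCF-10F by little, -0.20 for SGSH and -0.07 for SLC26A11, and the doses overlapped. Chromosomes 2 and 1 held the most members, 12 and 11. Neither the neighbours nor these counts were set beside all genes, so no clustering is read from them.

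Between the 2 untreated lines the choice of members took no direction, so that difference could be tested. The choice did use the lowest untreated array, so it can bear on the size of that difference and on the counts below. In limma over all 54613 probe sets, 2 members were higher in trMCF clone 11 at an adjusted p under 0.05, beside 1.56% of probe sets, and 4 were lower, beside 2.0%. RAB38 rose by 2.51 (SE 0.25, adjusted p = 0.0146 in limma) and PPP1R3C, a glycogen-targeting subunit of protein phosphatase, by 1.69 (SE 0.16, adjusted p = 0.0139). IRS1 fell by 3.49 (SE 0.26, adjusted p = 0.00748), FAP fell by 2.13 (SE 0.20, adjusted p = 0.0138), FKBP1B, a regulator of ryanodine receptors, fell by 2.07 (SE 0.38, adjusted p = 0.0479) and NEBL, the actin-binding nebulette, fell by 0.93 (SE 0.15, adjusted p = 0.0381). At an unadjusted p under 0.05, 12 members were higher and 17 lower, beside 5210 and 5649 of 54613 probe sets. VIM differed by -2.68 (SE 0.60, adjusted p = 0.0756) and VAV3 by 2.08 (SE 0.50, adjusted p = 0.0869), and neither passed. The median difference over the members was -0.06, beside 0.06 over all probe sets, with the clone mean above MCF-10F in 42 members and below it in 51. Both clone arrays lay above both MCF-10F arrays in 17 members, beside 27% of all genes at that level, and below in 23, beside 28.4%. Calls rested on 2 arrays a group and on a spread pooled with the 1 μM arrays, which lay closer together than those of either line. Over all probe sets, 0.126% lay more than 2-fold apart at 1 μM, beside 3.48% in MCF-10F and 7.71% in the clone. The pooled spread may thus be too narrow for the lines. When the fit used only the 4 arrays compared, 0 members were called, with adjusted p in limma from 0.0554 for IRS1 to 0.152 for NEBL. Leaving out either 1 μM array gives that same fit.

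PPP1R3C read 8.84 and 8.52 in MCF-10F, 10.33 and 10.41 in the clone, 7.05 and 7.02 at 1 μM and 7.41 and 6.43 at 10 μM. FKBP1B read 8.95 and 10.04, then 7.56 and 7.28 in the clone, 6.07 and 5.63 at 1 μM and 5.35 and 5.30 at 10 μM. NEBL read 10.57 and 10.56, then 9.75 and 9.51 in the clone, 8.39 and 8.42 at 1 μM and 8.06 and 8.76 at 10 μM. In all 3 the lines were separate from each other as well as from the ATRA arrays. The calls for FKBP1B and NEBL were lost in 9 of 14 and 9 of 15 other settings. Those settings are not all separate, since the fit of the 4 arrays compared recurs when either 1 μM array is left out. In that fit their adjusted p was 0.151 and 0.152 in limma.

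The doses could be compared in the same way, in a fit of the 4 ATRA arrays alone. At an adjusted p under 0.05 limma called 0 members higher and 0 lower at 10 μM than at 1 μM, beside 0% of all probe sets in either direction. At an unadjusted p under 0.05, 5 members were higher and 20 lower, beside 1950 and 1769 of 54613 probe sets. The median difference was -0.14 over the members and 0.01 over all probe sets, and 66 members had the lower mean at 10 μM. Both 10 μM arrays lay below both 1 μM arrays in 32 members, beside 23% of all genes at that level, and above in 10, beside 15.7%. No member differed by 1 or more. PLAU differed by -0.96 (95% interval -1.48 to -0.43, adjusted p = 0.725 in limma), ACKR3 by -0.91 (-1.21 to -0.60, adjusted p = 0.463) and FAP by -0.90 (-1.33 to -0.47, adjusted p = 0.725). MT1X differed by -0.82 (-1.35 to -0.29), SPRR1B by -0.80 (-1.62 to 0.02), PTPN13 by -0.73 (-1.07 to -0.39) and MT1H by -0.66 (-1.02 to -0.30). On the other side stood VIM with 0.71 (0.16 to 1.25), ADGRL2 with 0.55 (0.11 to 1.0) and SAT1 with 0.41 (0.13 to 0.69). In limma the adjusted p was 0.735 for SPRR1B and 0.725 for MT1X, PTPN13, MT1H, VIM, ADGRL2 and SAT1. All these genes were picked by the size of their difference, and the intervals are not adjusted for that. These adjusted p-values do not show that the doses act alike.

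**Figure D4:**
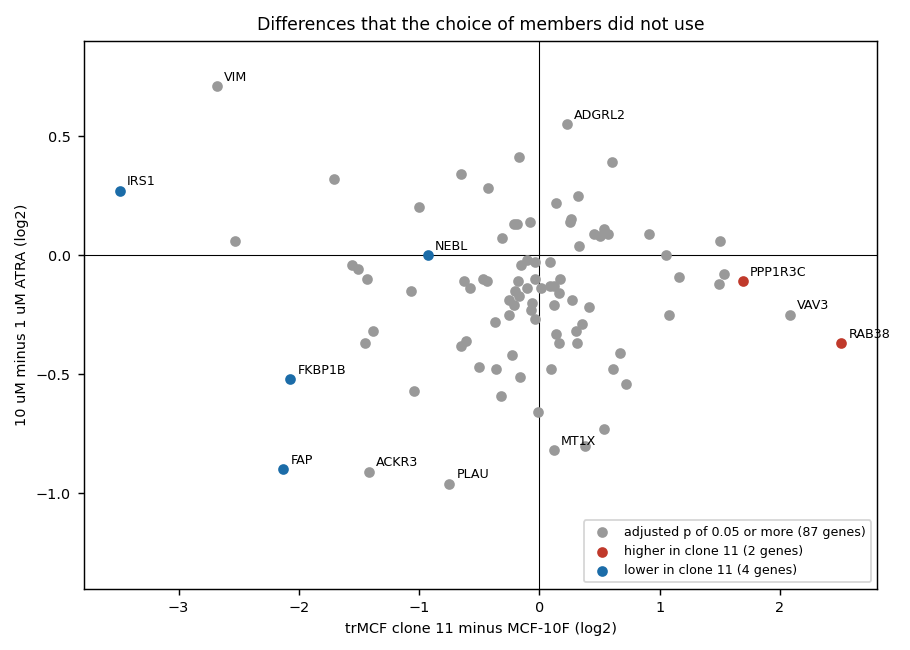
Each point is 1 of the 93 members, placed by trMCF clone 11 minus MCF-10F (x axis, log2) and by 10 μM minus 1 μM ATRA (y axis, log2); colour marks limma calls between the lines. The 2 members called higher in the clone lie at 2.51 (RAB38) and 1.69 (PPP1R3C) and the 4 called lower from -3.49 (IRS1) to -0.93 (NEBL), with uncalled members such as VIM (-2.68) and VAV3 (2.08) as far out, while differences between the doses stay between -0.96 (PLAU) and 0.71 (VIM).

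Gene lists placed the members among their pathways, each counted over genes at the level threshold. Of 26 desmosome and cell adhesion genes, GJA1 was a member and 11 (42.3%) had all ATRA arrays below, with 0 above; the others were CDH1, CLDN1, DSC2, DSG3, DSP, GJB2, GJB5, JUP, NECTIN4 and PKP3. Of 30 squamous differentiation genes, 2 were members, 9 (30%) were below and 4 (13.3%) above. Of 37 TGF-beta response and matrix genes, 4 were members (LOXL2, CCN1, LOX and TNC), 8 (21.6%) were below and 1 above. Of 31 matrix proteases and inhibitors, 2 were members (MMP2 and PLAU), 7 (22.6%) were below and 1 above. Of 26 basal epithelial genes, ITGA6 was a member, 4 (15.4%) were below and 0 above. Of 29 axon guidance genes, SEMA3C was a member, with 3 (10.3%) below and 3 (10.3%) above. Of 25 interferon response genes ISG20 was the member and the 1 (4%) below, with 3 (12%) above. These shares stand beside 8.55% below and 11.2% above over all genes.

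Other lists held no member, and their shares stand beside the same 8.55% below and 11.2% above over all genes. Of 12 S100 proteins 5 (41.7%) had all ATRA arrays below, and of 24 growth arrest and p53 target genes 9 (37.5%), with 0 above in both. In 37 DNA replication genes 0 were below and 19 (51.4%) above, and in 21 retinoid receptor, metabolism and target genes 0 were below and 7 (33.3%) above, among them CYP26B1, DHRS3 and STRA6. For 36 mitosis genes the counts were 0 below and 2 (5.56%) above, for 24 Wnt genes 0 and 5 (20.8%), for 15 antigen presentation genes 0 and 3 (20%), and for 18 prostaglandin genes 0 and 3 (16.7%). For 27 ERBB and ERK genes they were 1 and 7 (3.7% and 25.9%), for 28 developmental transcription factors 4 and 8 (14.3% and 28.6%), and for 33 inflammatory genes 4 and 3 (12.1% and 9.09%). For 23 AP-1 and early response genes they were 3 (13%) and 0, and for 31 YAP and actomyosin genes 4 (12.9%) and 0. For 16 Notch genes they were 1 and 1 (6.25% and 6.25%) and for 23 NRF2 genes 1 and 2 (4.35% and 8.7%). For 27 cholesterol and fatty acid genes they were 3 and 2 (11.1% and 7.41%), and for 15 luminal genes 1 and 2 (6.67% and 13.3%).

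**Figure D5:**
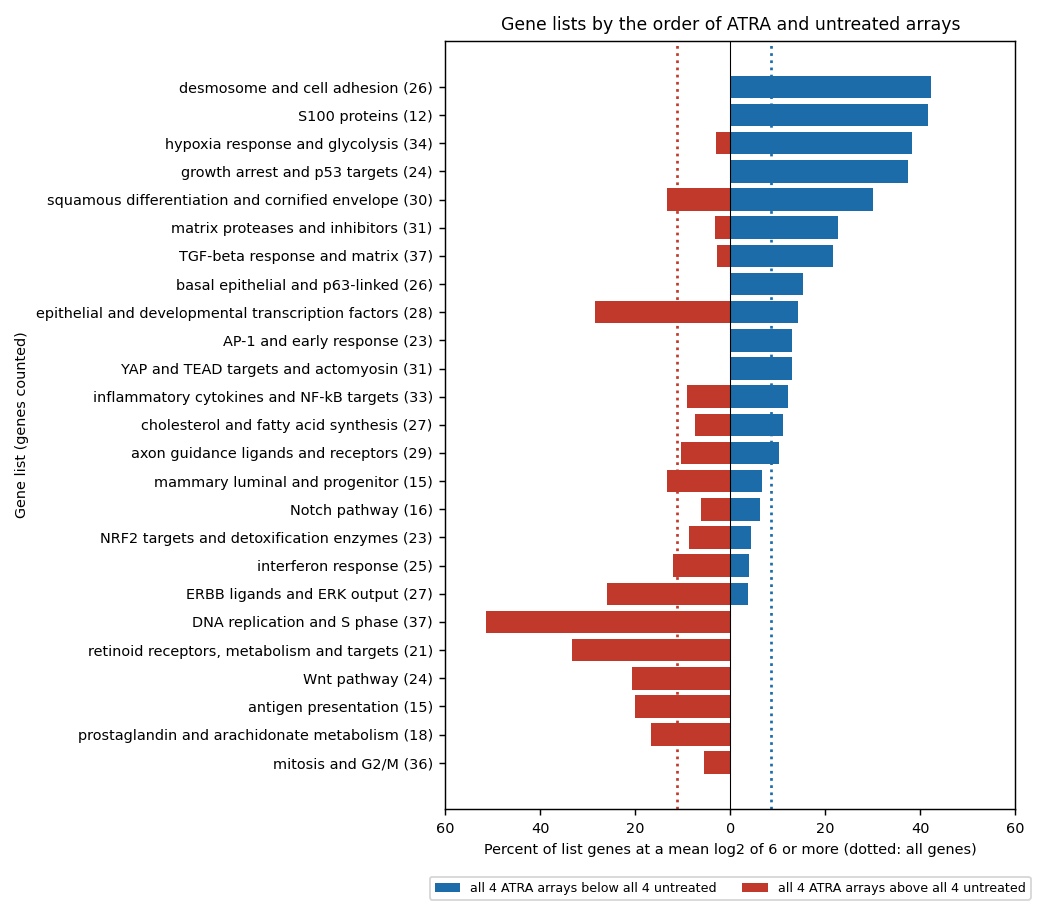
Share of each gene list (y axis, with the number of genes at the level threshold) whose 4 ATRA arrays lie all below (blue, to the right) or all above (red, to the left) the 4 untreated arrays (x axis, percent); dotted lines mark 8.55% and 11.2%, the shares of all genes. Desmosome and cell adhesion genes reach 42.3% below and DNA replication genes 51.4% above.

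Markers of cell types were read for the labelled tissue. All 11 epithelial markers with a probe set had a mean signal of 16 or more in every group, and their summed log2 signal was 15.64 to 15.79 in MCF-10F, 15.82 to 15.98 in the clone, 15.48 to 15.53 at 1 μM and 15.40 to 15.41 at 10 μM. The 13 fibroblast markers, of which FAP and VIM are members, summed to 13.36 to 14.32 in MCF-10F, 11.06 to 11.55 in the clone, 10.09 to 10.21 at 1 μM and 10.10 to 10.12 at 10 μM. COL1A1 also met the rule's thresholds. Without these 3 genes the other 10 summed to 12.51 to 13.04, 9.92 to 10.12, 9.34 to 9.58 and 9.39 to 9.49 in the same order of groups, so the drop from the clone to ATRA was smaller. S100A4 was the highest of these 10 in the clone and with ATRA, with means of 9.47, 8.52 at 1 μM and 8.19 at 10 μM. FBN1, with means of 5.74, 6.17 and 6.35 in the same groups, did not share that drop. The part of these markers in the members' differences was not tested. Endothelial markers summed to 8.19 to 10.31, 8.51 to 8.86, 9.62 to 9.91 and 10.02 to 10.45 in the same order of groups, and immune markers to 8.36 to 9.38, 8.58 to 9.06, 9.48 to 9.65 and 9.84 to 9.90, with EMCN and PTPRC under a signal of 16 in every group. PECAM1 read 6.73 and 10.05 in MCF-10F, 7.05 and 8.06 in the clone, 9.22 and 9.58 at 1 μM and 9.68 and 10.21 at 10 μM. CD14 read 5.62 and 8.65, then 7.22 and 6.76 in the clone, 9.03 and 8.77 at 1 μM and 9.16 and 9.37 at 10 μM. The other endothelial markers read at most 6.03 and the other immune markers at most 6.53. These sums with ATRA thus rest mainly on PECAM1 and CD14. Adipocyte markers, with ADIPOQ under 16 in every group, summed to 9.54 to 9.65, 9.03 to 9.20, 9.76 to 9.78 and 9.69 to 9.77, and neural markers to 11.31 to 12.60, 11.11 to 11.44, 11.61 to 11.77 and 11.65 to 11.66. PPARG was the highest adipocyte marker on every array and TUBB3 the highest neural one.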

How the data were processed

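Total RNA from 8 samples was hybridised to Affymetrix U133 Plus 2.0 arrays. The deposited values are intensities, 1 signal per probe set and array, which the authors had normalized between arrays. Both MAS 5.0 (scaled globally) and GeneSpring's Iterative Plier 16 appear in the methods, and the sources do not tell which produced them. Neither background nor detection calls could be recomputed, and low signals compress or inflate differences.

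Here log2 of the deposited intensities was used with no added scaling. Control probe sets (62 of 54675) were dropped. The platform annotation pairs 41091 of the other 54613 with 1 gene and 1801 with several, and lists none for 11721. A gene was given by its single-gene probe set with the highest mean over all arrays. All 93 members matched a RefSeq gene. Groups were assigned by sample titles. The members, the gene lists and the tests were chosen with earlier results of these data known. Lines were compared in limma 3.58.1 (R 4.3.3; lmFit, eBayes) on 6 arrays (both lines and the 1 μM dose), and doses on the 4 ATRA arrays, with Benjamini-Hochberg adjustment over all probe sets; prior degrees of freedom were 2.91 and 4.52 beside 3 and 2 residual ones. Array numbers limit the precision.

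Named genes are the 12 members with the widest gaps, up to 3 members of each list, the genes at the threshold, up to 8 called members in each direction and members with other probe sets. All other members are named to account for the whole set, and genes described for their role or family were chosen after their values were seen. Alternatives were other gaps and levels, quantile normalization, a floor of 16, leaving out the dimmest probe sets, the replicate number as a block, a robust prior with a trend, probe sets without shared-target suffixes, the mean over a gene's probe sets, the methods' fold of 2 at an unadjusted p of 0.05, other sets of arrays, and each array left out in turn. Tables were read with pandas 2.3.3 and numpy 2.4.6 under Python 3.11.15, and figures drawn with matplotlib 3.10.9.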

Additional observations from a re-analysis of the deposited data

How the results depend on the processing

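The count of 93 members was 169 at a gap of 0.5, 47 at a gap of 1 and 54 when a gene's probe sets were averaged, of which 49 are shared, 64 without shared-target probe sets, of which 59 are shared, and 100 to 205 when 1 array was left out, with 205 without MCF-10F replicate 1. Between the lines 6 members were called in all, 2 higher and 4 lower in trMCF clone 11. The methods' fold of 2 and unadjusted p called 22 (9 and 13), beside 1606 higher and 2623 lower of 54613 probe sets. Members called numbered 9 with 5 higher in a fit of all 8 arrays, and 0 (0 and 0) in a fit of the 4 arrays compared. With 1 array left out they numbered 0 to 14 (0 to 7 higher and 0 to 7 lower): 0 without either 1 μM array, 4 with 1 higher without MCF-10F replicate 1, 7 without MCF-10F replicate 2, 8 with 5 higher without clone replicate 1 and 14 without clone replicate 2. The median difference between the lines then ran from -0.16 to 0.15, turning sign without MCF-10F replicate 2. With the replicate number as a block, 3 were higher and 2 lower, with VAV3 called and FKBP1B and NEBL not. The counts from other sets of arrays, from arrays left out and from the block stand without the share called over all probe sets. Whether they rise or fall with the calls over all probe sets was not tested, so no change of the members alone is read. Arrays of the same number had deviations correlated at -0.06 to 0.35, the highest between the doses, and no label ties the numbers, so the block stayed an alternative. RAB38, PPP1R3C, IRS1, FAP, FKBP1B and NEBL reversed in 0 settings. Between the doses 0 members were called in every setting. Low signals limit the size of the differences for 6 members.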
